A study of Danio rerio with 4 samples.

Results

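The genes gata4, gata5, gata6, nkx2.5, tbx5a, hand2, tbx20, nr2f1a and mef2ca encode transcription factors of the heart, and their RNA was followed here across cell types of the adult zebrafish heart 6 h after cryoinjury or sham injury. The 9 genes were chosen by symbol from the 31466 features of the gene table, and each symbol matched 1 feature. In the order given, their identifiers were ENSDARG00000098952, ENSDARG00000017821, ENSDARG00000103589, ENSDARG00000018004, ENSDARG00000024894, ENSDARG00000008305, ENSDARG00000005150, ENSDARG00000052695 and ENSDARG00000029764. All fish carried the genotype AB and had received 4-thiouridine (4sU), a uridine analogue taken up into new RNA, so both groups share the label. The cryoinjured group (6 hpci, 2 libraries) had part of the ventricle frozen with a cooled probe, and the sham group (6 hps, 2 libraries) was opened in the same way but not frozen. Each library held cells of several pooled hearts, so the spread between libraries is the spread between pools. The values are counts of unique molecular identifiers (UMIs, each standing for 1 captured RNA molecule) of labeled and unlabeled RNA together.

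These factors bind the control regions of heart genes, often side by side. Gata4, Gata5 and Gata6 are zinc finger proteins, Nkx2.5 is a homeodomain protein, Tbx5a and Tbx20 are T-box proteins, Hand2 is a basic helix-loop-helix protein, Mef2ca is a MADS-box protein, and Nr2f1a is an orphan nuclear receptor of the COUP-TF family. In the zebrafish embryo Gata5 and Hand2 are needed to form heart muscle, Tbx5a also acts in the fin bud, and Nr2f1a is known for its part in atrial identity.

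Of 78127 barcodes, 55075 were kept, and cell types were assigned by UMIs of marker genes, none of which is among the 9 genes. This gave 20115 ventricular cardiomyocytes, 7738 atrial cardiomyocytes, 2494 endocardial, 1058 epicardial, 552 fibroblast and 512 smooth muscle cells, 1164 macrophages, 222 dendritic cells and 3154 erythrocytes. The ventricular gate rested on myh7l, tnni4a and nme2b.2, because vmhc and vmhcl were not in the gene table used here. Cells of the 2 chambers were separated by markers alone, so a chamber name here is a ratio of marker UMIs. A further 8965 cardiomyocytes were not assigned, because chamber markers were too few or neither chamber had 2 times the markers of the other. Of the 27853 assigned cardiomyocytes, 4182 had under 3 times the markers of the other chamber. The libraries held 86891164 to 136777379 UMIs, and library pairs shared 84 to 293 barcode sequences. Cryoinjury replicate 2 stood apart over all barcodes. Its median mitochondrial share was 46.3% against 27.8% to 33.4% in the other libraries, and 48.0% of its barcodes were left out against 18.5% to 27.9%. Among the barcodes kept, its median mitochondrial share was 25.05%, inside the range of the other libraries (23.97% to 29.34%). The comparisons between chambers, of the endocardium and epicardium with the ventricle, and between injury groups are therefore also given without cryoinjury replicate 2.

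Over all barcodes the 9 genes gave between 535 UMIs (gata4) and 9678 UMIs (nkx2.5), with 8423 for hand2, 6145 for tbx5a, 5286 for gata5, 5179 for gata6, 4530 for mef2ca, 2470 for nr2f1a and 2155 for tbx20. They are thus sparse transcripts, and gata4 in particular is measured from few molecules. Levels are given in CPM, the UMIs of the gene scaled to 1e+06 UMIs of all cells of a type in a library, and are listed as sham replicates 1 and 2 and then cryoinjury replicates 1 and 2. The means over the 4 libraries are a description of the types, since the order of levels was not tested as such. Mitochondrial and haemoglobin genes together take up most UMIs of erythrocytes, whose median was 4890 to 7279.5 UMIs per barcode in all but 837 to 1084 outside these genes, so CPM was also computed without them. This second scale raises the erythrocyte levels several-fold. The erythrocyte gate set no limit on cardiomyocyte markers, which took 8.68% to 11.2% of the UMIs outside these genes over the libraries.

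**Figure D1:**
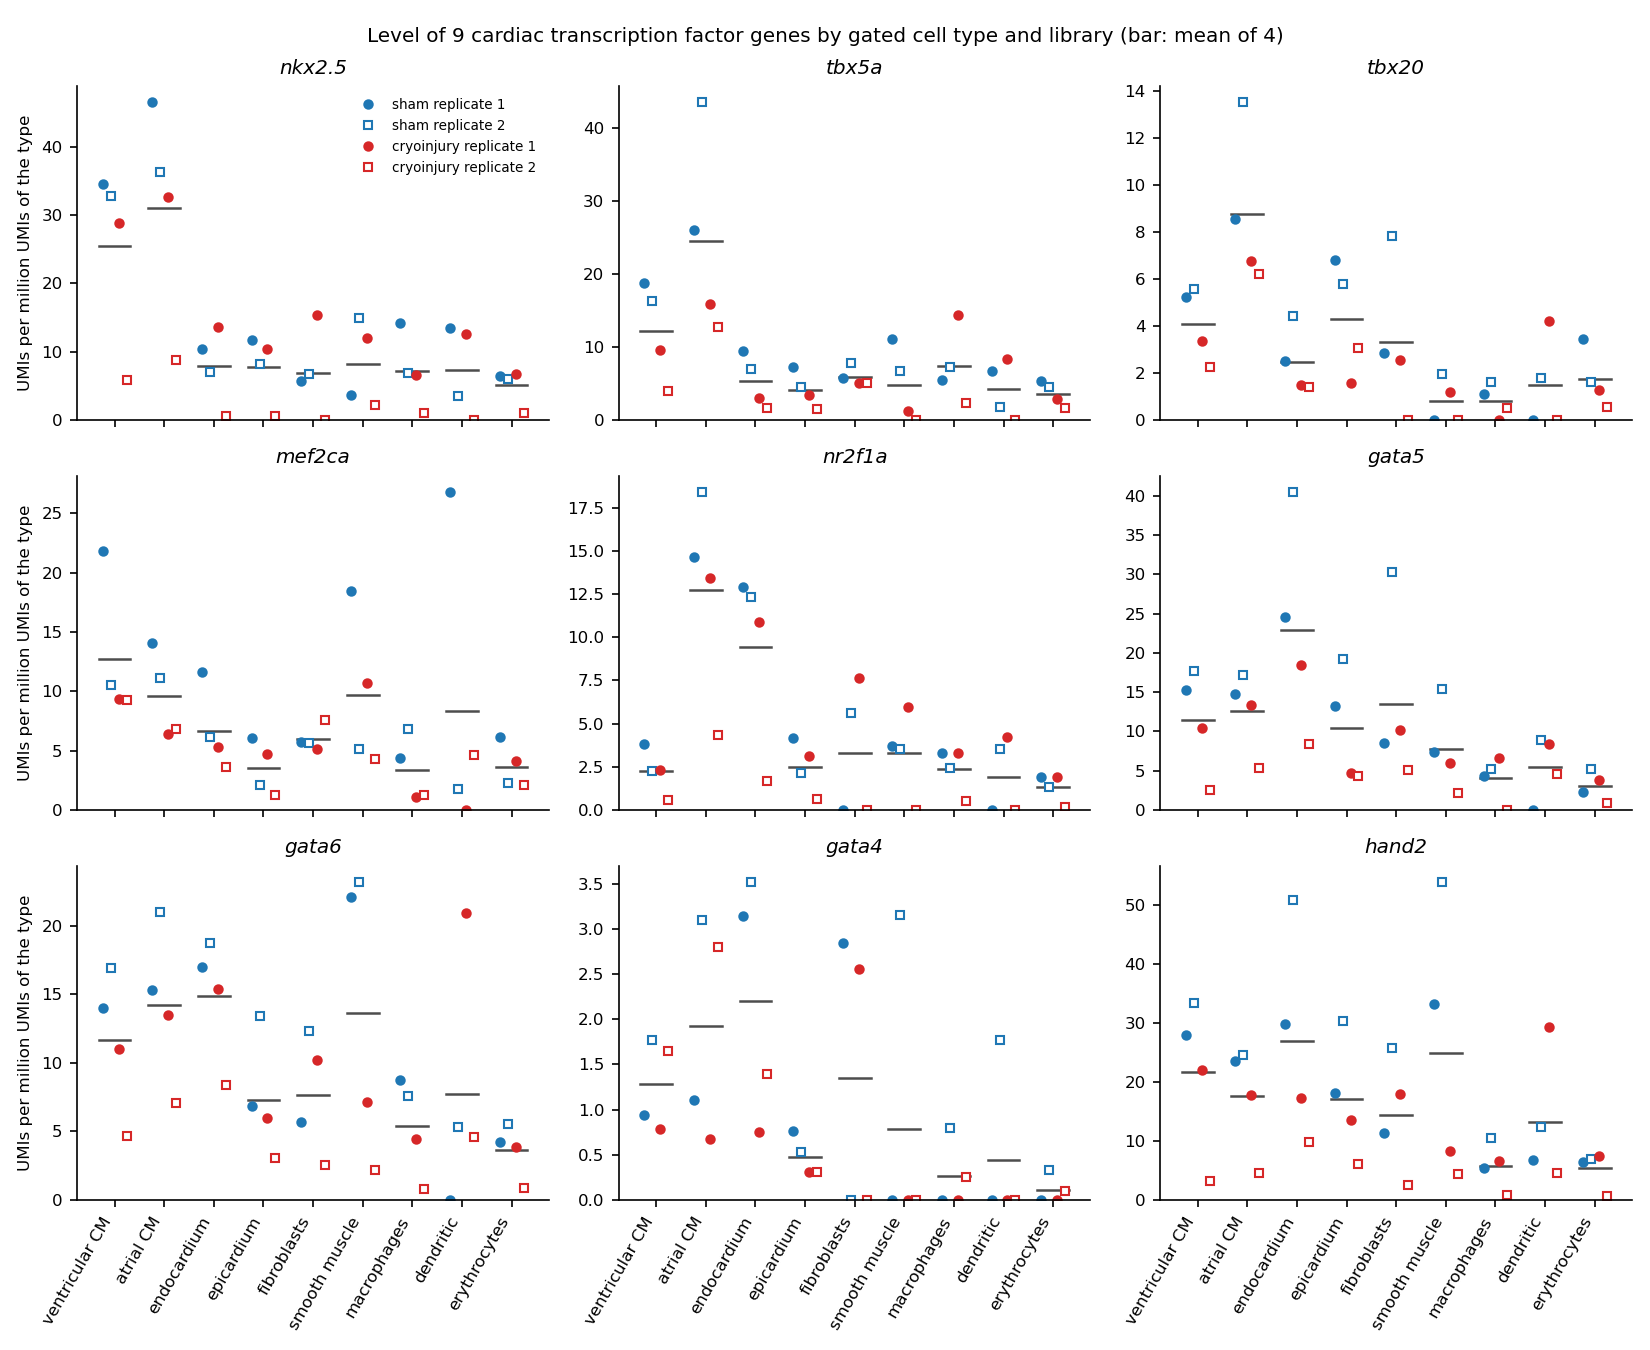
Level of each gene (CPM, linear axis from 0) by cell type, with 1 point per library and the mean over 4 libraries as a bar line. The nkx2.5 and tbx5a panels are highest in the atrial and ventricular cardiomyocytes, gata5 and hand2 in the endocardium, nr2f1a in the atrial cardiomyocytes and the endocardium.

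The factors fell into patterns that differed by gene. The nkx2.5, tbx5a and tbx20 means were highest in atrial cardiomyocytes and the mef2ca mean in ventricular cardiomyocytes. The means of gata5 and hand2 were highest in the endocardium, and nr2f1a was highest in atrial cardiomyocytes with the endocardium next. For gata4 and gata6 the order of these types depended on the scale. Their means were 2.20 and 14.9 CPM in the endocardium against 1.92 and 14.2 CPM in atrial cardiomyocytes, but 2.86 and 19.4 against 2.93 and 21.4 CPM without mitochondrial and haemoglobin genes. In CPM of all UMIs, the range over the 4 libraries of the highest type overlapped the range of the next type for each of the 9 genes. Within a library the order was more regular, and gata5, nkx2.5, tbx5a, tbx20 and nr2f1a were each higher in the first type than in the next type in 4 of 4 libraries.

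Nkx2.5, which acts in heart muscle cells from early heart formation on, was the gene with the clearest cardiomyocyte pattern. Its level in atrial cardiomyocytes was 46.6, 36.2, 32.7 and 8.75 CPM (31.1 ± 15.99, SD, n = 4). In ventricular cardiomyocytes it was 34.6, 32.8, 28.8 and 5.85 CPM (25.5 ± 13.3, n = 4). The first 3 libraries were close to each other in both chambers, and cryoinjury replicate 2 was far below them. In the other types the mean lay between 5.06 CPM (erythrocytes) and 8.19 CPM (smooth muscle), with 7.17 CPM in macrophages. The gene is not expected in erythrocytes and macrophages. Without mitochondrial and haemoglobin genes the erythrocyte mean was 22.3 CPM, above 9.51 CPM in macrophages and 10.5 CPM in smooth muscle and below 37.3 CPM in the ventricle. The ratio of the ventricular to the erythrocyte mean was thus 5.04 on the first scale and 1.67 on the second, and the ventricle was the higher in 4 of 4 libraries on both. In CPM of all UMIs, smooth muscle cells, endocardium, epicardium, dendritic cells, macrophages, fibroblasts and erythrocytes followed in that order, and neighbours in it overlapped.

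Tbx5a, a T-box factor whose human counterpart is mutated in Holt-Oram syndrome, had 26.1, 43.6, 15.9 and 12.8 CPM in atrial cardiomyocytes and 18.8, 16.3, 9.62 and 3.95 CPM in ventricular cardiomyocytes. Its mean was 24.6 ± 13.9 CPM (SD, n = 4) in the atrium and 12.2 ± 6.72 CPM in the ventricle, and the atrial value was the higher in 4 of 4 libraries. The means of the other types ran from 3.62 CPM in erythrocytes to 7.33 CPM in macrophages. The endocardial and epicardial means, 5.29 and 4.16 CPM, lay between those of erythrocytes and macrophages. Without mitochondrial and haemoglobin genes they were 6.85 and 5.15 CPM, below both macrophages (9.94 CPM) and erythrocytes (16.6 CPM). On that scale the ventricular mean (17.8 CPM) was 1.07 times the erythrocyte mean, against 3.37 times in CPM of all UMIs, and the atrial mean (37.1 CPM) 2.23 times. Erythrocyte barcodes themselves held cardiomyocyte markers (median 7.87%, against 1.91% in macrophages).

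Tbx20, the other T-box gene, had 8.54, 13.5, 6.76 and 6.23 CPM in atrial cardiomyocytes and 5.22, 5.56, 3.35 and 2.25 CPM in ventricular cardiomyocytes. The atrial range lay above the ventricular range with no overlap. Epicardial cells had 6.82, 5.80, 1.56 and 3.05 CPM, which placed the epicardium second by mean (4.31 CPM) and just above the ventricle (4.09 CPM), with overlapping ranges. The endocardial mean was 2.45 CPM, the erythrocyte mean 1.73 CPM and the macrophage mean 0.802 CPM. Without mitochondrial and haemoglobin genes the atrium was still highest (13.2 CPM), followed by erythrocytes (7.87 CPM, from 29 UMIs), the ventricle (6.00 CPM) and the epicardium (5.30 CPM), so that the place of the epicardium rests on the scale.

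Mef2ca, a Mef2 factor that acts in muscle gene expression, had 21.8, 10.6, 9.35 and 9.25 CPM in ventricular cardiomyocytes and 14.1, 11.2, 6.39 and 6.86 CPM in atrial cardiomyocytes. The ventricular value was the higher in 3 of 4 libraries, with sham replicate 2 as the exception, and the ranges overlapped. Endocardium (6.67 CPM), epicardium (3.52 CPM) and macrophages (3.39 CPM) had lower means. Erythrocytes had 3.65 CPM, or 16.9 CPM without mitochondrial and haemoglobin genes, where the ventricle had 18.6 CPM. Of the 9 genes, mef2ca was the one whose level differed least between cryoinjury replicates 1 and 2 in the ventricle.

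Compared within libraries, atrial and ventricular cardiomyocytes differed in 5 of the 9 genes. Sums of UMIs per library and chamber were compared with edgeR's quasi-likelihood test with the library as a block, and adjusted p-values (Benjamini-Hochberg) cover all genes tested, with a threshold of 0.05. In this comparison 2602 of 9204 genes, or 28.3%, passed the threshold (1253 higher and 1349 or 14.7% lower in atrial cells). Scaled by library size alone in place of TMM factors, the split was 2136 higher and 727 lower, and the median of all genes shifted from 0.02 to 0.23 (log2). The nr2f1a transcript was higher in the atrium by a log2 fold change of 2.35 ± 0.18 (SE, adjusted p = 2.5e-08), tbx20 by 0.88 ± 0.16 (adjusted p = 0.00032) and tbx5a by 0.83 ± 0.17 (adjusted p = 0.0016). The mef2ca transcript was lower in the atrium with -0.59 ± 0.14 (adjusted p = 0.0035), and hand2 with -0.41 ± 0.14 (adjusted p = 0.035). The other 4 genes did not pass, with 0.29 ± 0.23 for gata4, 0.11 ± 0.12 for nkx2.5, 0.10 ± 0.13 for gata6 and 0.03 ± 0.16 for gata5.

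The 5 calls among 9 genes stand beside 28.3% of all genes called, and that difference was not tested. Without cryoinjury replicate 2 the log2 fold changes were 2.27 for nr2f1a, 0.78 for tbx20, 0.65 for tbx5a, -0.60 for mef2ca and -0.56 for hand2, and the same 5 genes passed. The nr2f1a call held under every alternative run here (adjusted p up to 0.011). The hand2 call was lost without any one of sham replicate 1, sham replicate 2 or cryoinjury replicate 1 (adjusted p = 0.087, 0.17 and 0.12) and with library sizes alone (0.29). With a 20% limit on mitochondrial UMIs nr2f1a alone passed, and tbx20 (adjusted p = 0.055) and tbx5a (0.072) missed the threshold; mef2ca also missed it with library sizes alone (0.061).

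Nr2f1a was measured at 14.6, 18.4, 13.4 and 4.33 CPM in atrial cardiomyocytes and at 3.81, 2.25, 2.34 and 0.550 CPM in ventricular cardiomyocytes. The lowest atrial value lay above the highest ventricular value, so the chambers did not overlap even with cryoinjury replicate 2 included. The endocardium had 12.9, 12.3, 10.9 and 1.67 CPM (9.45 ± 5.25, SD, n = 4), between the chambers by mean. Macrophages (2.38 CPM), epicardium (2.503 CPM) and ventricular cardiomyocytes (2.24 CPM) had nearly the same mean. Without mitochondrial and haemoglobin genes the ventricular mean (3.25 CPM) was 0.561 times that of erythrocytes (5.80 CPM, from 21 UMIs) and below it in 4 of 4 libraries, while the atrial mean (19.1 CPM) was 3.29 times and above it in 4 of 4.

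Shares of cells with a UMI pointed the same way as the levels between the chambers. For these shares 1000 UMIs were drawn at random from each cell, because the chambers differ in depth (medians of 2177 to 3256 UMIs per ventricular and 3254 to 7335 per atrial cell over the libraries), and 556 ventricular and 185 atrial cells with fewer were left out. After thinning, nr2f1a was seen in 1.64%, 1.54%, 1.12% and 0.329% of atrial cells. In ventricular cells the shares were 0.454%, 0.321%, 0.203% and 0.0226%. Erythrocytes should lack the gene, and their median depth was 4890 to 7279.5 UMIs. Their share ran from 0% (0 of 1326 cells in cryoinjury replicate 2, for which the exact interval ends at 0.278%) to 0.218%. The ventricular shares of both cryoinjury libraries were inside this range over the libraries. Within cryoinjury replicate 2 alone, the ventricular share was 0.0226% against 0% in erythrocytes. Exact 95% binomial intervals, which cover counting error only, were 1.22% to 2.17% (atrial) and 0.299% to 0.659% (ventricular) in sham replicate 1. Unthinned, the shares were 2.96% to 14.0% in atrial and 0.226% to 1.72% in ventricular cells.

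The erythrocyte shares above are lowered by mitochondrial and haemoglobin UMIs, which make up most of those drawn from these cells. In an alternative chosen after seeing the data, 500 UMIs outside mitochondrial and haemoglobin genes were drawn per cell, leaving out 220 ventricular cells, 84 atrial cells and 336 erythrocytes. The nr2f1a shares were then 1.17%, 2.03%, 0.851% and 0.263% of atrial cells and 0.370%, 0.193%, 0.152% and 0% of ventricular cells, against 0.706%, 0%, 0.881% and 0.0852% of erythrocytes. Atrial shares were above the erythrocyte share in 3 of 4 libraries and ventricular shares in 1 of 4. Ventricular nr2f1a was thus not told apart from the erythrocyte share, and erythrocyte barcodes themselves held cardiomyocyte markers (median 7.87%).

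The nkx2.5 share was 4.30%, 3.01%, 3.37% and 1.05% of atrial and 3.33%, 2.95%, 3.25% and 0.543% of ventricular cells, against 1.09%, 0.616%, 1.26% and 0.151% of erythrocytes. Cardiomyocyte shares lay above the erythrocyte share of the same library in 4 of 4 libraries in both chambers. After thinning without mitochondrial and haemoglobin genes the nkx2.5 shares were 3.89%, 3.26%, 1.90% and 0.855% of atrial, 2.17%, 2.04%, 2.61% and 0.385% of ventricular cells and 1.41%, 1.05%, 1.32% and 0.426% of erythrocytes, above the erythrocytes in 4 and 3 of 4 libraries. For tbx5a the shares were 2.55%, 4.36%, 1.68% and 1.31% of atrial and 2.10%, 1.65%, 0.981% and 0.475% of ventricular cells, and the erythrocyte share did not exceed 0.739%. In the other thinning tbx5a was above the erythrocyte share in 4 of 4 libraries in the atrium and in 3 of 4 in the ventricle, and tbx20 in 3 of 4 and 0 of 4.

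**Figure D2:**
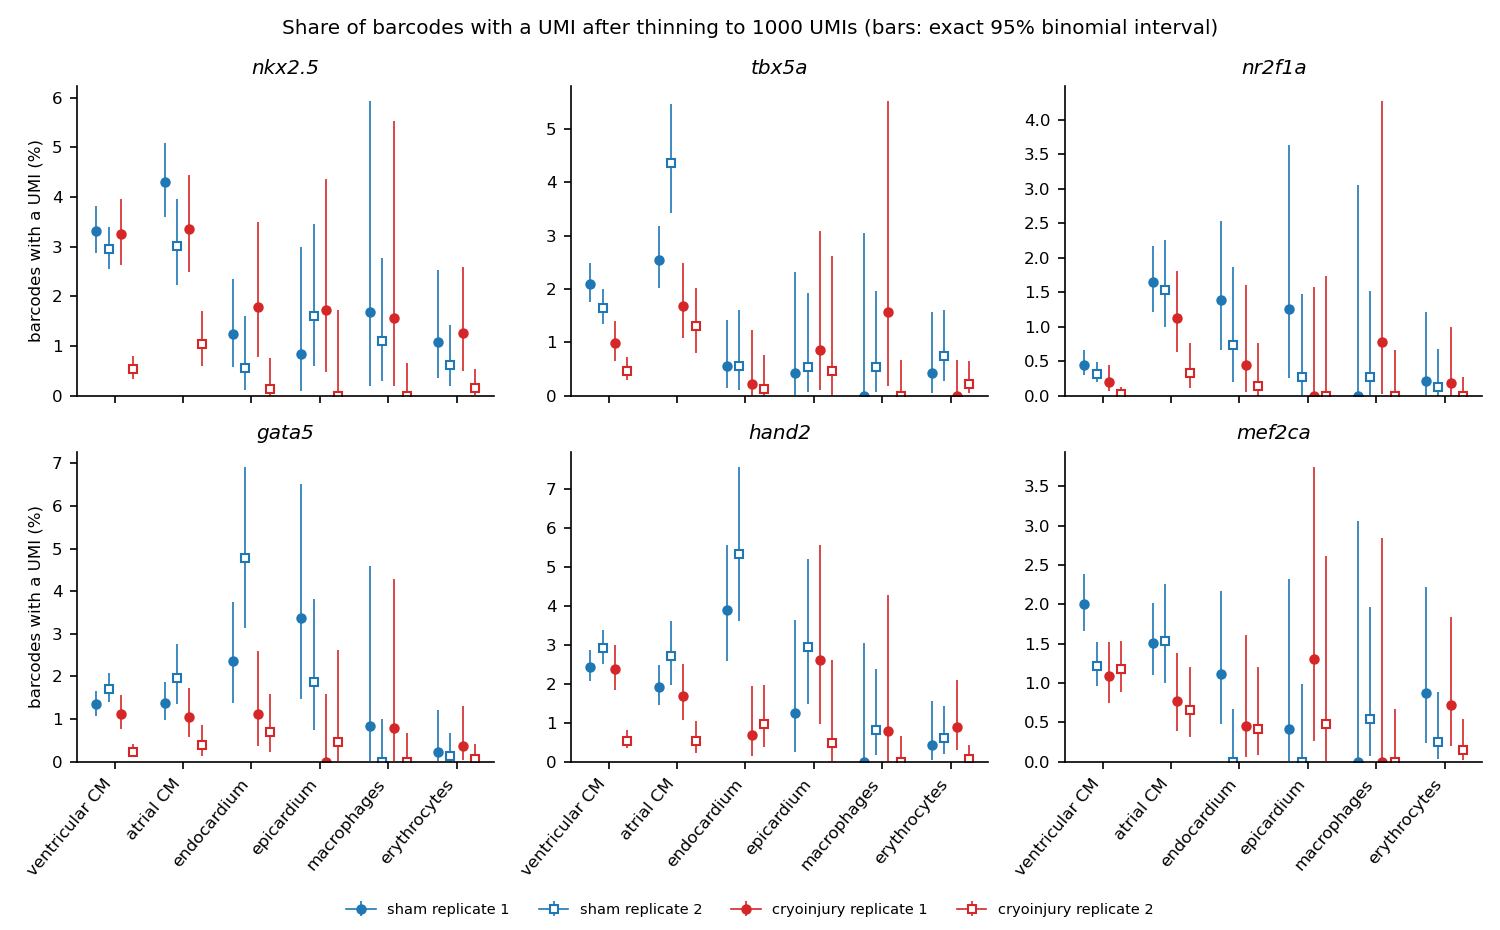
Share of cells with at least 1 UMI of the gene, for 6 of the 9 genes, after thinning to 1000 UMIs (percent, linear axis from 0), by cell type and library, with exact 95% binomial intervals that cover counting error only. The erythrocyte shares, which are lowered by the haemoglobin UMIs of these cells, are shown for background, and the atrial nr2f1a shares of 1.64%, 1.54% and 1.12% in the first 3 libraries stand above it.

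In the endocardium, the inner lining of the heart, hand2, gata5 and gata6 had the highest levels of the 9 genes, followed by nr2f1a (9.45 CPM), nkx2.5 (7.88 CPM) and mef2ca (6.67 CPM). Hand2 had 29.9, 50.8, 17.3 and 9.77 CPM there and gata5 had 24.5, 40.5, 18.4 and 8.37 CPM. Gata6 had 16.97, 18.8, 15.4 and 8.37 CPM, with the smallest spread of these genes (14.9 ± 4.56, SD, n = 4). Both sham libraries were above both cryoinjury libraries for each of these genes, as in 7 of 8 tested members and in 41.5% of 5525 genes in CPM, or in 4 of 8 and 17.5% after TMM scaling. Gata4 reached only 2.20 CPM by mean, from 29 UMIs in all.

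Against ventricular cardiomyocytes, the endocardium was called different in 5 of the 9 genes, beside a background of 4485 of 8192 genes, or 54.7% (27.9% higher and 26.8% lower). The lower genes were nkx2.5 with a log2 fold change of -2.37 ± 0.28 (edgeR, adjusted p = 2.7e-06), tbx5a with -1.76 ± 0.26 (3.7e-05), mef2ca with -1.45 ± 0.24 (9.0e-05) and tbx20 with -1.26 ± 0.33 (0.0039). The higher gene was nr2f1a with 1.54 ± 0.28 (adjusted p = 0.00022). The call of tbx20 was lost with library sizes alone (adjusted p = 0.066). Without cryoinjury replicate 2 the same 5 genes passed, with -2.26 for nkx2.5, -1.82 for tbx5a, -1.43 for mef2ca, -1.35 for tbx20 and 1.55 for nr2f1a. A share of 5 in 9 is near the background, and the cardiomyocyte gene myl7 itself was lower in the endocardium by construction, because cells above a limit of cardiomyocyte markers were not admitted.

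Gata5 (0.57 ± 0.24, adjusted p = 0.060), gata4 (0.27 ± 0.41), hand2 (-0.07 ± 0.29) and gata6 (-0.08 ± 0.24) were not called. On library sizes alone the gata5 difference was 1.08 with an adjusted p of 0.00058, and the signs of gata6 and hand2 turned to 0.42 and 0.44, neither past the threshold. The scaling matters here because the median of all genes was 0.08 with TMM factors (2286 higher, 2199 lower) and 0.59 without them (3582 higher, 1468 lower). Relative to that median, gata6 and hand2 were below it in both scalings.

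Macrophages, in which most of these genes are not expected, were used to read the background. In the endocardium gata5 was 5.67 times, hand2 4.63 times, nr2f1a 3.98 times, tbx20 3.06 times and gata6 2.76 times the macrophage mean, each higher in 4 of 4 libraries. Endocardial nkx2.5 was 1.099 times the macrophage mean and higher in 2 of 4 libraries, and tbx5a was 0.721 times and higher in 1 of 4. Without mitochondrial and haemoglobin genes these library counts were the same. Against erythrocytes on that scale, endocardial gata5 was 2.21 times and nr2f1a 2.12 times as high, both in 4 of 4 libraries, and hand2 1.503 times and gata6 1.21 times, in 3 of 4. Endocardial nkx2.5, tbx5a, tbx20 and mef2ca were 0.405 to 0.513 times the erythrocyte mean there and lower in 4 of 4 libraries. The nkx2.5 and tbx5a UMIs of endocardial barcodes were at the level found in macrophages. The pan-cardiomyocyte markers (7 genes) took a median of 3.07% of UMIs outside mitochondrial and haemoglobin genes in endocardial cells and 1.91% in macrophages. Their median was 7.87% in erythrocytes and 15.1% in ventricular cells. The part of free cardiomyocyte RNA in these levels was not tested.

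After thinning, hand2 was seen in 3.88% and 5.33% of endocardial cells of the sham libraries and in 0.673% and 0.960% of those of the cryoinjury libraries. For gata5 the shares were 2.35% and 4.78% in sham and 1.12% and 0.686% in cryoinjury. Erythrocytes gave 0.0754% to 0.903% for hand2 and 0.0754% to 0.361% for gata5, so the endocardial hand2 share of cryoinjury replicate 1 lay inside the erythrocyte range. In the thinning without mitochondrial and haemoglobin genes, endocardial gata5 was above the erythrocyte share of the same library in 4 of 4 libraries and hand2 in 2 of 4.

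**Figure D3:**
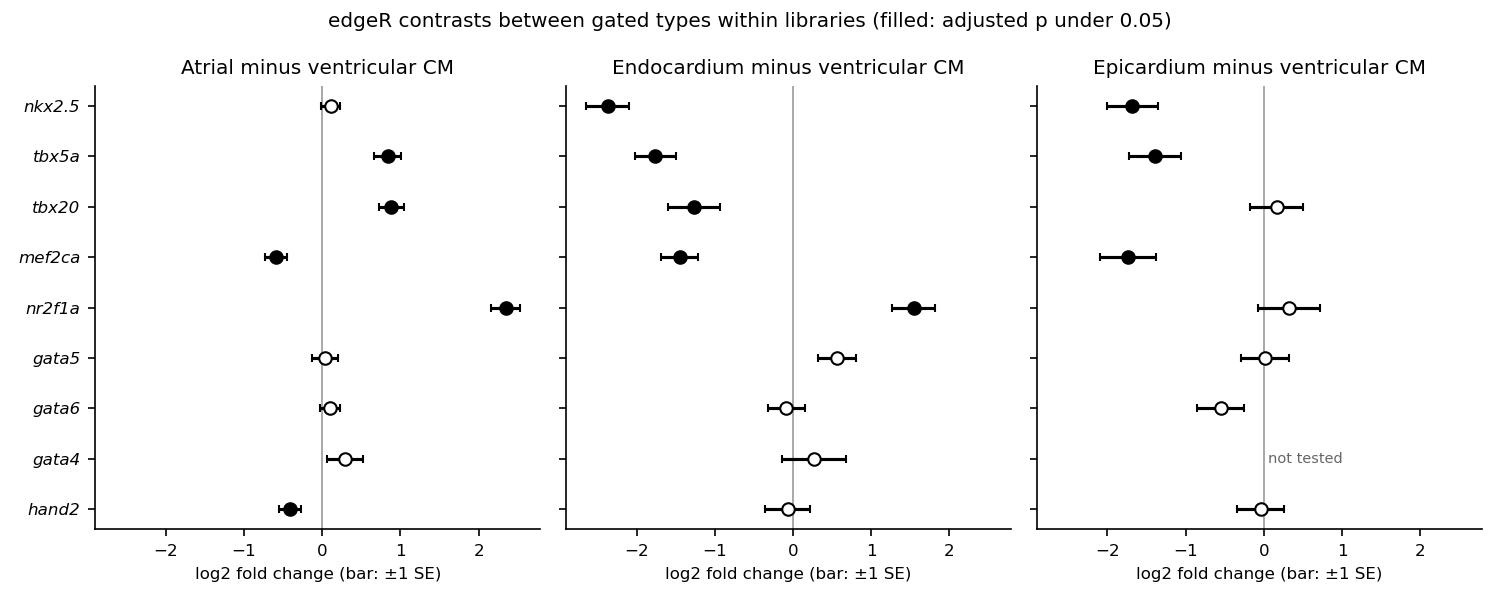
Log2 fold changes between cell types (points) with their standard errors (lines) from edgeR fits with the library as a block, by gene and comparison, with filled points for an adjusted p under 0.05. Nr2f1a is higher in atrial cardiomyocytes (2.35) and endocardium (1.54) than in ventricular cardiomyocytes, and nkx2.5, tbx5a and mef2ca are lower in endocardium and epicardium than in ventricular cardiomyocytes.

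The epicardium, the outer cell layer of the heart, carried hand2 at 18.2, 30.3, 13.5 and 6.10 CPM and gata5 at 13.3, 19.2, 4.69 and 4.27 CPM. Against ventricular cardiomyocytes 3 of 8 tested genes were called, all lower, beside 3435 of 7503 genes, or 45.8% (22.8% higher and 23% lower); gata4 had too few UMIs to be tested. Mef2ca had -1.74 ± 0.36 (edgeR, adjusted p = 0.00013), nkx2.5 -1.68 ± 0.32 (5.6e-05) and tbx5a -1.39 ± 0.33 (0.00080). Without cryoinjury replicate 2 the values were -1.52, -1.51 and -1.45, and all 3 genes passed. The nkx2.5 call was lost with no library block (edgeR, adjusted p = 0.059). Epicardial nkx2.5, nr2f1a, mef2ca and tbx5a were between 0.568 and 1.08 times the macrophage mean. Tbx20 was 5.37 times and hand2 2.92 times that mean, both higher in 4 of 4 libraries. Against erythrocytes, without mitochondrial and haemoglobin genes, epicardial gata5 was 0.952 times, hand2 0.911 times and tbx20 0.674 times as high. Each of these was higher in 2 of 4 libraries, so their place above background rests on the cells it is read from. The 2 backgrounds are unlike. Over the libraries the pan-cardiomyocyte markers took 8.68% to 11.2% of UMIs outside mitochondrial and haemoglobin genes in erythrocytes. In macrophages they took 2.02% to 3.55%.

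Tbx20 did not differ detectably between epicardium and ventricle (0.16 ± 0.34, adjusted p = 0.73). Gata5 (0.02 ± 0.31), hand2 (-0.04 ± 0.30), gata6 (-0.55 ± 0.30) and nr2f1a (0.32 ± 0.40) were also not called. Against the endocardium, 1 of 7 tested genes was called, beside 1362 of 4588 genes, or 29.7% (15.1% higher and 14.6% lower). It was nr2f1a, lower in the epicardium with -1.37 ± 0.36 (adjusted p = 0.0058), a call lost with DESeq2 (0.13) and with no library block (0.13). Tbx20 was too low to be tested there with all 4 libraries, and passed in the epicardium at 1.34 without cryoinjury replicate 1 (adjusted p = 0.023) and at 1.23 without cryoinjury replicate 2 (0.044). Gata5 had -0.66 ± 0.26 (adjusted p = 0.064), nkx2.5 0.56 ± 0.29, gata6 -0.55 ± 0.27, mef2ca -0.42 ± 0.36, tbx5a 0.21 ± 0.34 and hand2 -0.09 ± 0.25. On library sizes alone the split of all calls moved from 692 higher and 670 lower to 342 higher and 1506 lower. The median of all genes moved from 0.02 to -0.53. In that fit 5 of the 7 tested members were called, all lower, beside 1848 of 4588 genes.

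In fibroblasts the genes were counted from 2 to 36 UMIs each, and 0 of 4 tested genes were called against the epicardium, beside 396 of 2943 genes, or 13.5% (5.13% higher and 8.32% lower). The calls over all genes were 151 higher and 245 lower, or 255 and 139 on library sizes alone. The values were -0.47 ± 0.36 for hand2, -0.39 ± 0.48 for nkx2.5, 0.23 ± 0.37 for gata5 and -0.16 ± 0.45 for gata6. The smallest unadjusted p of the 4 genes was 0.20 (edgeR, hand2), and DESeq2 called 0 of them as well. In smooth muscle, where myh11a and acta2 marked the cells, hand2 had 33.2, 53.9, 8.35 and 4.31 CPM. These rest on 9, 137, 7 and 2 UMIs of 35, 246, 150 and 81 barcodes. Against ventricular cardiomyocytes 3 of 9 genes were called, beside 1705 of 7149 genes, or 23.8% (10.1% higher and 13.8% lower), namely nkx2.5 with -1.60 ± 0.48 (adjusted p = 0.0059), tbx5a with -1.74 ± 0.56 (0.011) and tbx20 with -1.90 ± 0.74 (0.044). Not called were mef2ca (-0.70 ± 0.48), gata5 (-0.65 ± 0.51), nr2f1a (0.60 ± 0.60), hand2 (-0.16 ± 0.45), gata6 (-0.10 ± 0.47) and gata4 (0.04 ± 0.69). The tbx20 call was lost without any one library (adjusted p = 0.063 to 0.20), the tbx5a call without sham replicate 2 (0.063) or cryoinjury replicate 1 (0.098), and the nkx2.5 call without sham replicate 1 (0.090).

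The split of all calls in smooth muscle was 719 higher and 986 lower, and 930 higher and 725 lower with DESeq2. Dendritic cells held 1 to 16 UMIs of each gene, and erythrocytes 3 to 89.

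Injury was compared between the 2 cryoinjury and the 2 sham libraries within each type. The marker limits of types other than cardiomyocytes and erythrocytes were set per library and were unequal. For the endocardium they were 0.453% and 0.676% in sham against 0.326% and 0.344% in cryoinjury. For the epicardium they were 0.211% and 0.304% against 0.140% and 0.146%, and for smooth muscle 0.186% and 0.795% against 0.442% and 0.208%. The part of these limits in the injury values was not tested. Of the 9 genes, 9 had enough UMIs to be tested in each chamber, 8 in the endocardium and in the epicardium, 6 in erythrocytes, 4 in macrophages, 2 in smooth muscle and 0 in fibroblasts and dendritic cells. These fits carried no block for the replicate number. None of the members tested was called in them, and the background was the same, with 0 genes (0%) called in each type. In ventricular cardiomyocytes 399 of 9492 genes had an unadjusted p under 0.05, in atrial cardiomyocytes 695 of 8678, in the endocardium 180 of 5525 and in the epicardium 371 of 4074. DESeq2 called 11, 4, 1 and 9 genes in these types, none of them among the 9. Among the members tested an unadjusted p under 0.05 was found for epicardial gata5 (0.033) and for hand2 (0.0033) and gata6 (0.025) in smooth muscle. With 2 libraries per group an exact permutation test of a single value could not give a p below 0.33. Blocked by replicate number, which pairs the libraries, the edgeR fits called 21, 72, 39 and 69 genes in these types, and 0 of the 9. In smooth muscle the blocked fit called 179 of 1585 genes, and hand2 of the 2 tested members.

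Ventricular hand2 was at 27.9 and 33.4 CPM in the sham and at 22.1 and 3.25 CPM in the cryoinjury libraries. Ventricular gata5 was at 15.3 and 17.6 against 10.4 and 2.55 CPM, and gata6 at 14.0 and 16.96 against 11.05 and 4.70 CPM. For these 3 genes both cryoinjury libraries were below both sham libraries, by a small step in replicate 1 and a large one in replicate 2, and 44.9% of 9492 genes did so in CPM (21.1% after TMM scaling). Ventricular gata4 had 0.941 and 1.77 against 0.779 and 1.65 CPM, which overlap. In atrial cardiomyocytes hand2 was at 23.6 and 24.6 against 17.8 and 4.51 CPM and gata5 at 14.8 and 17.2 against 13.3 and 5.32 CPM. Atrial gata6 was at 15.3 and 20.99 against 13.5 and 7.04 CPM, and the same step between the cryoinjury replicates is seen.

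Fitted values in ventricular cardiomyocytes were negative for 8 of the 9 genes, and none passed. The log2 fold changes were -0.94 ± 0.55 for gata5, -0.94 ± 0.47 for tbx5a, -0.89 ± 0.68 for hand2, -0.65 ± 0.62 for nr2f1a and -0.57 ± 0.60 for nkx2.5 (edgeR, adjusted p = 0.81 to 0.83). Gata6 had -0.53 ± 0.45, tbx20 -0.47 ± 0.42, mef2ca -0.32 ± 0.48 and gata4 0.38 ± 0.62. The median of all genes was -0.05, and on library sizes alone it was -0.52.

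Without cryoinjury replicate 2 these ventricular values shrank to 0.10 for nkx2.5, -0.14 for hand2, -0.33 for gata5, -0.05 for nr2f1a, -0.15 for gata6 and -0.54 for tbx5a. Mef2ca then had -0.48, tbx20 -0.35 and gata4 -0.46, and none was called.

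**Figure D4:**
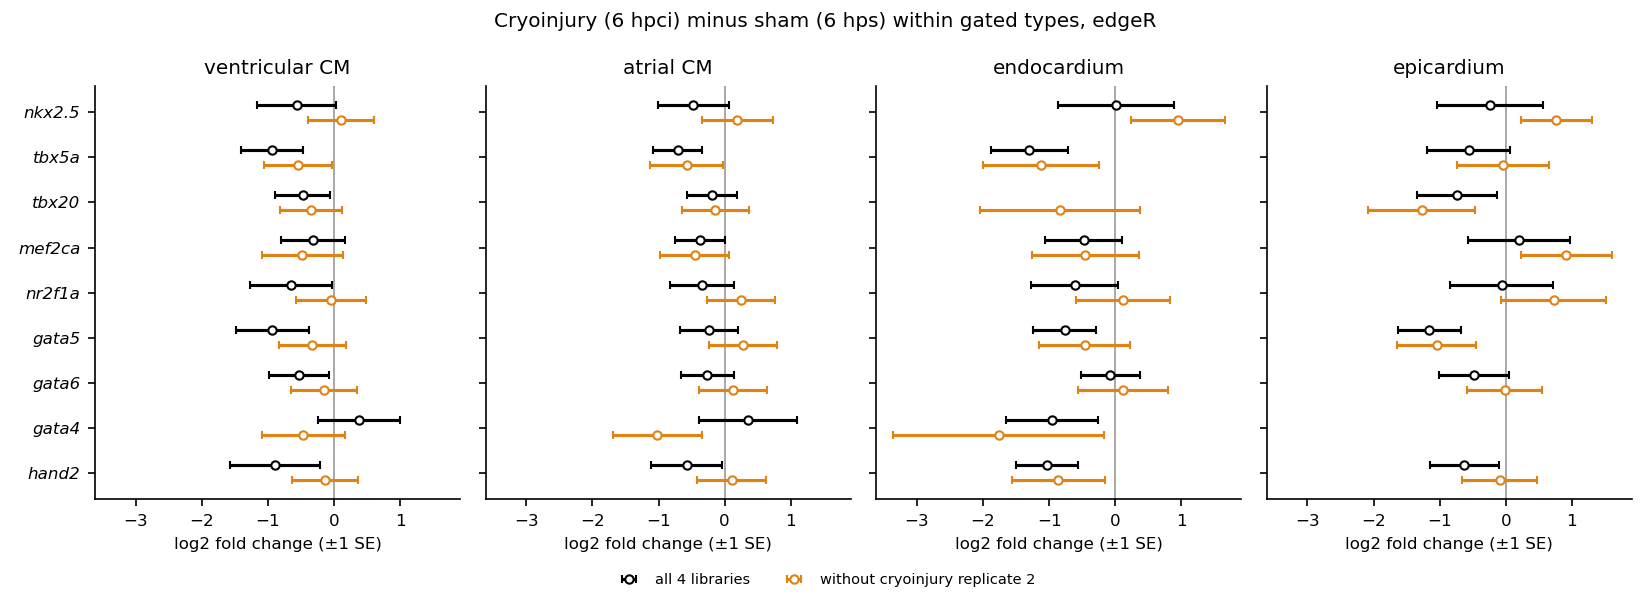
Log2 fold change of cryoinjury against sham (points) with standard errors (lines) for each gene in 4 cell types, from all 4 libraries and without cryoinjury replicate 2. No point passed an adjusted p of 0.05, and for nkx2.5 the ventricular value moves from -0.57 to 0.10 when that library is left out.

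In atrial cardiomyocytes tbx5a had -0.71 ± 0.37, hand2 -0.57 ± 0.54, nkx2.5 -0.47 ± 0.54, mef2ca -0.37 ± 0.37 and nr2f1a -0.35 ± 0.49. Gata6 (-0.26 ± 0.40), gata5 (-0.23 ± 0.44), tbx20 (-0.19 ± 0.38) and gata4 (0.35 ± 0.74) were closer to 0 or uncertain. The adjusted p-values (edgeR) ran from 0.59 to 0.88. Without cryoinjury replicate 2 the sign turned for nkx2.5 (0.19), hand2 (0.11), gata5 (0.28), gata6 (0.13) and nr2f1a (0.25) and for gata4 (-1.02), and stayed negative for tbx5a (-0.57), mef2ca (-0.45) and tbx20 (-0.14).

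In the endocardium, tbx5a (-1.30 ± 0.58), hand2 (-1.03 ± 0.47), gata4 (-0.96 ± 0.69) gata5 (-0.77 ± 0.48), nr2f1a (-0.61 ± 0.66), mef2ca (-0.48 ± 0.58) and gata6 (-0.07 ± 0.45) had negative values and nkx2.5 had 0.01 ± 0.88, all with an adjusted p near 1.00. Nkx2.5 fell on both sides of 0, at -3.05 without cryoinjury replicate 1 and at 0.95 without cryoinjury replicate 2. In the epicardium gata5 had -1.16 ± 0.47 (edgeR, adjusted p = 0.52), tbx20 -0.74 ± 0.61, hand2 -0.62 ± 0.53, tbx5a -0.56 ± 0.63, gata6 -0.48 ± 0.52, mef2ca 0.20 ± 0.77 and nr2f1a -0.06 ± 0.78. Epicardial nkx2.5 had -0.24 ± 0.80, but -3.18 without cryoinjury replicate 1. That value rests on cryoinjury replicate 2 alone, which held 2 nkx2.5 UMIs in 211 epicardial barcodes.

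In smooth muscle hand2 was the gene with the largest injury value, -2.49 ± 0.62 (edgeR, adjusted p = 0.24), beside 0 of 1585 genes called and 196 at an unadjusted p under 0.05. Blocked by replicate number it had -2.39 with an adjusted p of 0.0025 (edgeR), and 179 genes were called. Without cryoinjury replicate 2 it had -2.12 and without cryoinjury replicate 1 it had -2.90, neither passing. That value rests on 9 UMIs or fewer in 3 of the 4 libraries. The other gene tested there, gata6, had -1.87 ± 0.69. In macrophages 0 of 4 tested genes were called, with -1.71 for gata6, -1.43 for nkx2.5, -1.32 for hand2 and 0.44 for tbx5a (edgeR, adjusted p = 0.96 to 0.99). In erythrocytes 0 of 6 were called, with values from -1.06 (gata6) to -0.02 (mef2ca) and hand2 (-0.88), tbx5a (-0.76), gata5 (-0.76) and nkx2.5 (-0.72) between them.

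Counted by overlap, 7 of the 9 genes had both cryoinjury libraries below both sham libraries in ventricular cardiomyocytes (CPM), beside 44.9% of 9492 genes. In atrial cardiomyocytes the count was 8 of 9 beside 53.3%, in the endocardium 7 of 8 beside 41.5% and in the epicardium 5 of 8 beside 52.4%. After TMM scaling the counts were 5 of 9 beside 21.1%, 2 of 9 beside 23.9%, 4 of 8 beside 17.5% and 2 of 8 beside 24.9%. None of the tested members had both cryoinjury libraries above both sham libraries in these types. In the same order of types, 3.58%, 3.2%, 2.46% and 3.09% of all genes did so in CPM. After TMM scaling these shares were 18.1%, 20.2%, 15% and 20%.

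Cryoinjury replicate 2 gave low readings for most of the genes, and not to the same degree for each. In CPM computed without mitochondrial and haemoglobin genes, ventricular hand2 was 0.121 times the mean of the other 3 libraries, gata5 0.183, nkx2.5 0.189, nr2f1a 0.205 and tbx5a 0.275 times. Gata6 was at 0.347, tbx20 at 0.495, mef2ca at 0.694 and gata4 at 1.46 times, beside a median of 0.821 over 3774 genes. In that comparison 0.980% of the genes had a lower ratio than hand2 and 2.94% a lower ratio than nkx2.5. The genes compared were those with at least 5 CPM by mean over the other 3 libraries. The libraries in the denominator thus chose the background, so the medians and ranks here are a description only. Gata4 was under this limit in each type given here, nr2f1a in the ventricle and epicardium, and tbx20 in the endocardium. In atrial cardiomyocytes hand2 was at 0.213, nkx2.5 at 0.237, nr2f1a at 0.289, gata5 at 0.365, gata6 at 0.437 and tbx5a at 0.463 times. Atrial tbx20 was at 0.667, mef2ca at 0.679 and gata4 at 1.76 times, beside a median of 0.812. The endocardial median was 0.556, and the members ran from 0.055 (nkx2.5) to 0.579 (gata4), with gata6 at 0.501 and mef2ca at 0.482. The epicardial median was 0.604, and the members ran from 0.0593 (nkx2.5) to 0.641 (tbx20). Among the barcodes kept, this library's median mitochondrial share was 25.05%, inside the range of the other libraries (23.97% to 29.34%). The part of its higher share over all barcodes (46.3%) in these readings was not tested.

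The injury effect was also compared between the chambers by an interaction term. None of the 9 genes, and none of 10579 genes (0%), was called by edgeR, with 402 genes at an unadjusted p under 0.05, and DESeq2 also called 0. The largest difference among the 9 was gata5, with an edgeR value of 0.82 ± 0.29 (atrial minus ventricular effect, adjusted p = 1.00). The others were hand2 with 0.48 ± 0.28, tbx20 with 0.35 ± 0.32, tbx5a with 0.35 ± 0.34, gata6 with 0.34 ± 0.27, nr2f1a with 0.33 ± 0.39, nkx2.5 with 0.21 ± 0.26, mef2ca with -0.07 ± 0.30 and gata4 with -0.04 ± 0.47.

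Other genes of the same families and partners were examined in the same fits, from lists set by family and role. Of 26 paralogs and partners (among them further Mef2, Nr2f and Gata genes), 11 were tested between the chambers, and 0 were higher and 4 lower in the atrium. Of 34 other heart lineage transcription factors, 12 were tested, with 3 higher and 5 lower in the atrium. Of 20 cardiac genes known as targets of such factors, 19 features of 17 symbols were tested, with 7 higher and 8 lower, and the list medians were -0.02, -0.62 and -0.11 beside 0.02 for all genes. Large differences among them were heyl (3.38), shox2 (3.33), irx1a (-2.98), fhl2a (1.90) and nppa (1.79, log2 fold changes). Shox2 is a known factor of the inflow and sinus region, and nppa encodes the atrial natriuretic peptide.

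In the endocardium against the ventricle, 6 of 14 paralogs and partners were higher and 3 lower, 8 of 10 lineage factors higher and 1 lower, and 0 of 19 target features higher and 17 lower. The 6 largest were klf2a (3.76), irx5a (3.72), sox7 (3.62), nr2f2 (3.61), fli1a (3.58) and klf2b (3.56). Klf2a responds to blood flow in endothelium, sox7 and fli1a are endothelial factors, and nr2f2 is a close relative of nr2f1a. In the epicardium, 0 of 10 paralogs and partners were higher and 2 lower, 6 of 9 lineage factors higher and 1 lower, and 1 of 19 target features higher and 17 lower, against the ventricle. The 6 largest were tbx18 (5.69), wt1b (5.64), tcf21 (4.79), irx1a (-2.77), klf2a (2.42) and csrp3 (-2.41). Wt1b is a known epicardial factor, and tbx18 and tcf21 are no findings because they served as epicardial gate markers. The same holds for the target genes myl7, cmlc1, tnnt2a, actc1a, ttn.1 and ttn.2, which were cardiomyocyte gate markers.

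Between epicardium and endocardium 0 of 5 paralogs and partners were higher and 2 lower, and of 10 lineage factors 3 were higher, 2 of them gate markers, and 7 lower. Wt1b had 6.35, irx5a -3.54, klf2b -2.82 and fli1a -2.78 there. In smooth muscle against the ventricle foxc1b (3.08) and foxc1a (2.497) were higher and irx1a (-2.98), csrp3 (-2.66), actc1a (-2.58) and acta1b (-2.45) lower. In fibroblasts against the epicardium prrx1a (2.31) was higher and wt1b (-2.64), klf2a (-1.55) and tbx18 (-0.93) lower. Of these, actc1a and tbx18 served as gate markers and are no findings. For injury, 0 genes of the 3 lists were called in any type.

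Over 36 sums (9 types in 4 libraries), which share depth and library, the genes whose log2(CPM + 1) profile was most like that of a member were found among 8281 genes, as a description. Gata5, gata6 and hand2 were each in the others' lists, with a Pearson r of 0.876 (gata5 and gata6), 0.841 (gata5 and hand2) and 0.858 (gata6 and hand2). The remaining neighbours were rpusd4 (0.805) for gata5, svbp (0.846) for gata6 and cebpd (0.862) for hand2. For nkx2.5 they were mtus1a (0.913), nmrk2 (0.911) and ppp2r3b (0.897), for tbx5a pla1a (0.874), synpo2lb (0.864) and kcnh6a (0.863).

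For nr2f1a the nearest were chl1a (0.845), apcdd1l (0.801) and tanc2a (0.799), for tbx20 nudt4a (0.796), nudt3b (0.787) and si:dkeyp-94h10.5 (0.786). For mef2ca they were ndufaf6 (0.787), gstk4 (0.753) and macf1a (0.735), and for gata4 cd2bp2 (0.763) and pak4 (0.749). No neighbour named for gata4, tbx20 or mef2ca was among the 9 genes.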

How the data were processed

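Droplet RNA sequencing was done on cells of 4 pools of adult zebrafish hearts, as described for the study. The authors deposited UMI counts for every gene and barcode, made with Cell Ranger 4.0.0 (named in the submitters' processing notes) against GRCz11. These counts were used as they stand, with no split into labeled and unlabeled RNA, and labeled counts alone were not analysed here. Of 31466 identifiers, 28965 matched a separate symbol table, and 0 UMIs of RFP were counted.

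Barcodes were required to hold 500 UMIs and 200 genes or more and a mitochondrial share of up to 50%. Cells were assigned by marker lists (5 of 87 markers were absent). The limits of the gates were set after the marker shares had been seen. Cardiomyocytes needed at least 8% of UMIs outside mitochondrial and haemoglobin genes in 7 shared markers. They also needed 2 times the markers of the other chamber. Other types had to lie under 7%, apart from erythrocytes, which needed 40% of all UMIs in haemoglobin genes. Types under the 7% limit also needed at least 3 marker UMIs from at least 2 of their markers. Their marker share had to reach 8 times that of the cardiomyocytes of the same library, and at least 0.1%. This limit therefore differed between libraries. Erythrocytes had no limit on cardiomyocyte markers, and these took 8.68% to 11.2% of their other UMIs over the libraries. Barcodes passing more than 1 gate (4010) were left out, but erythrocytes that also passed the cardiomyocyte limit were kept. No doublet caller was run. Types needed 30 cells in each library.

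Counts were summed per library and type and tested with edgeR 4.0.16 (quasi-likelihood fit, robust; TMM factors; filterByExpr, minimum count 10) in R 4.3.3, within a type for injury and with the library as a block between types. A standard error is the size of the log2 fold change over the root of its F value. DESeq2 1.42.0, other scalings, filters, gates and each library left out were alternatives. Shares of cells were also taken after thinning to 500 UMIs outside mitochondrial and haemoglobin genes, an alternative chosen after seeing the data. The same-numbered libraries shared an operator per the study's sample list, and in that sense the numbers pair the libraries. Their deviations from the group mean correlated (0.129 to 0.413 over 9 types). With 2 libraries per group the opposite pairing gives the same values with the sign turned, so this correlation cannot settle the pairing. The injury fits nevertheless carried no block, as the design set, and blocked values are given where a call or a count of calls changed. P-values of the injury fits measure the spread between pools, which may be partly technical. Those of fits with the library as a block measure how the difference between types varies from library to library. All 9 genes, where tested, are named in every comparison, with the 6 largest of the listed related genes and the 3 nearest profiles, apart from 2 genes that are not reported here. The genes and lists were chosen with earlier results of these data known.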

Additional observations from a re-analysis of the deposited data

How the results depend on the processing

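Log2 values are given for the first type minus the second or for cryoinjury minus sham. Of the 9 genes, 0 were called for injury, and this held in every alternative but one (hand2 in smooth muscle with the replicate block, 1 gene called) and one fit without a library (epicardium, 0 to 1). Genes called for injury, 0 with all libraries, moved with DESeq2 to 11 (ventricular), 4 (atrial), 1 (endocardium), 9 (epicardium), 15 (smooth muscle) and 3 (erythrocytes). With no filter they moved to 35, 20, 9, 42 and 28 in the first 5 types, 12 in macrophages and 14 in erythrocytes, and with the replicate block to 21, 72, 39, 69 and 179 and 22 in macrophages. Stricter gates gave 4 in the epicardium. Leaving out 1 library gave 1 to 20 (ventricular), 4 to 66 (atrial), 5 to 20 (endocardium), 0 to 188 (epicardium), 0 to 71 (smooth muscle), 8 to 23 (macrophages) and 0 to 35 (erythrocytes). In such fits the lone library is taken to vary like the others.

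Injury values changed sign as follows. With library sizes alone gata4 had -0.18 (ventricular) and -0.26 (atrial), endocardial nkx2.5 -0.35 and epicardial mef2ca -0.43. Endocardial nkx2.5 had -0.072 with the 20% limit, -0.48 with stricter gates and -0.41 with the replicate block, and epicardial nkx2.5 had 0.074 with stricter gates. Leaving out 1 library gave, in the ventricle, -0.46 to 0.91 for gata4, -1.90 to 0.10 for nkx2.5 and -0.78 to 0.41 for mef2ca. In the atrium it gave -1.02 to 1.17 for gata4, -0.91 to 0.28 for gata5, -0.68 to 0.13 for gata6, -1.58 to 0.19 for nkx2.5, -1.74 to 0.11 for hand2, -0.40 to 0.12 for tbx20 and -1.25 to 0.25 for nr2f1a. In the endocardium it gave -0.21 to 0.12 for gata6, -3.05 to 0.95 for nkx2.5, -2.02 to 0.12 for nr2f1a and -0.91 to 0.26 for mef2ca. In the epicardium it gave -3.18 to 0.76 for nkx2.5, -1.12 to 0.16 for tbx5a, -1.52 to 0.82 for nr2f1a and -0.92 to 1.47 for mef2ca.

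Between the chambers the genes called fell from 2602 to 927 with the 20% limit and 295 with no library block, and the members called from 5 to 1 in both and to 3 with library sizes alone. Gata5 had -0.013 with no library block and -0.15 to 0.15 without 1 library. For endocardium minus ventricle, gata6 had 0.42 and hand2 0.44 with library sizes alone, 0.50 and 0.036 with the 20% limit, and gata4 -0.052 with no filter. Without 1 library gata4 had -0.11 to 0.48, gata6 -0.30 to 0.098 and hand2 -0.44 to 0.19. For epicardium minus ventricle, 5 members were called with no filter and 2 with no library block, against 3. Gata5 there had -0.13 with library sizes alone, -0.077 with DESeq2, -0.33 with no filter and -0.020 with no library block. Hand2 had 0.17 with stricter gates, and with no filter tbx20 had -0.19 and nr2f1a -0.016. Without 1 library gata5 had -0.20 to 0.22, hand2 -0.33 to 0.12 and tbx20 -0.011 to 0.33.

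For epicardium minus endocardium, members called moved from 1 to 5 with library sizes alone, 2 with no filter, and 0 with DESeq2, stricter gates and no library block. Genes called fell to 571 with no library block. With library sizes alone nkx2.5 had -0.0065 and tbx5a -0.32. Without 1 library 1 to 2 members were called and tbx5a had -0.0073 to 0.37. Fibroblasts minus epicardium gave 255 genes called with the 20% limit, 609 with no filter and 81 with no library block against 396. For smooth muscle minus ventricle, gata4 had -0.54 with DESeq2 and -0.36 with no filter. Gata6 had 0.035 with DESeq2, 0.074 with library sizes alone and 0.071 with no library block, and hand2 had 0.026 and 0.073 in the last 2. Without 1 library 1112 to 1556 genes and 1 to 2 members were called, gata6 had -0.36 to 0.015 and hand2 -0.57 to 0.15. In the interaction, 2 genes were called with the 20% limit, 5 with no filter and 1 to 17 without 1 library. Nr2f1a there had -0.11 with the 20% limit and mef2ca 0.20 with stricter gates. Without 1 library gata4 had -0.66 to 0.23, tbx5a -0.12 to 0.77, nr2f1a -0.19 to 0.83 and mef2ca -0.43 to 0.22. The cause of these moves was not tested, except that fits with fewer libraries or no filter test other sets of genes. The 20% limit and stricter gates left smooth muscle and dendritic cells with under 30 cells in a library and were not run there. Thinned without mitochondrial and haemoglobin genes, an alternative chosen after seeing the data, 24 mean shares of cells moved by over 1 SD and 57 did not. Counting error limits gata4 in every type and all 9 genes in fibroblasts and dendritic cells.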
